A study of Mus musculus with 20 samples.

Results

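Hearts of MuRF1 knockout mice given fenofibrate for 8 weeks were compared with hearts of MuRF1 knockout mice on chow alone, over all genes that could be measured. The comparison uses 6 of the 20 arrays of the series, chosen by sample title: 3 hearts of MuRF1 -/- mice whose chow held 0.05% (w/w) fenofibrate, and 3 hearts of MuRF1 -/- mice after 8 weeks on plain chow. All 6 animals lacked MuRF1, so the drug was the labelled difference between the groups. Other groups of the series served as points of reference: MuRF1 +/+ hearts after 8 weeks of fenofibrate (n = 3) or of chow (n = 3), and MuRF1 -/- hearts after 3 weeks of fenofibrate (n = 4). Each array carried Cy5-labelled RNA of 1 heart and Cy3-labelled RNA pooled from whole C57BL/6 pups of postnatal day 1. Levels are therefore given as log2 of heart over pup reference, and a difference of 1 on this scale is a 2-fold difference. The labels call the hearts biological replicates. They give no sex and do not say how MuRF1 was deleted. The series text states 3-8 weeks as the age of the mice, whereas in the labels 3 and 8 weeks count the duration of feeding. The labels are followed here, and the age is not known.

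Fenofibrate is a lipid-lowering drug that activates PPAR alpha, a nuclear receptor that pairs with RXR and switches on genes of fatty acid uptake, storage and oxidation in liver and heart. In heart muscle, which burns mostly fatty acids, PPAR alpha also induces Pdk4, a kinase that shuts off pyruvate dehydrogenase and so spares glucose. MuRF1, encoded by Trim63, is a ubiquitin ligase of the sarcomere that marks muscle proteins for the proteasome and is known to limit heart growth. The series asked how MuRF1 bears on the heart growth seen with fenofibrate.

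The labels were first checked against the arrays. Trim63 lay at -0.95, -0.98 and -1.01 in the 8-week hearts and at -0.97, -0.96 and -1.11 in the chow hearts, while MuRF1 +/+ chow hearts spanned 2.38 to 2.59. In the MuRF1 +/+ 8-week group, replicates 1 and 3 were at 2.85 and 2.41, and replicate 2, an array that stood apart from its group, was at 0.79. All 6 hearts were thus far below the MuRF1 +/+ chow hearts, and the groups did not differ (log2 0.04 ± 0.33 SE). Heart tissue markers were present, with cardiomyocyte genes at a mean of 2.26 to 2.35 in the 8-week hearts and 2.23 to 2.30 in the chow hearts. On the 6 arrays, 38.8% to 42.5% of probes were well above background in the heart channel. Transcripts of the Y-linked genes Ddx3y and Eif2s3y had mean levels of 1.45, -0.81 and 1.33 in 8-week replicates 1, 2 and 3 and of 1.24, 1.18 and 1.54 in the chow hearts. Replicate 2 of the 8-week group thus lacked both, as did all 3 MuRF1 +/+ hearts at 8 weeks, so results are also given without this heart where that changes them. The 8-week and chow hearts shared only 1 slide, which held replicate 2 of each group. Slides were told apart by shared scan, to which the grid names of all 20 arrays correspond, although the header barcode of 4 arrays names another slide.

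In all, 263 of 14567 genes tested (1.81%) differed between the groups at a Benjamini-Hochberg adjusted p of 0.05 in limma, a linear model fitted to all 20 arrays. Of these, 125 (0.858%) were higher and 138 (0.947%) lower with fenofibrate. Most changes were small: the median size among called genes was 0.56 on the log2 scale, 33 genes exceeded 2-fold and 139 stayed under 1.5-fold. The 2 groups had no overlapping values for any of the 263, which was also true of 24.7% of all genes tested (10.8% higher and 14% lower at 8 weeks). Without adjustment, 12.7% of all genes had a p under 0.05, 5.46% higher and 7.21% lower. Counts given below for gene lists are to be read against these shares. The rises were led by Pdk4, Acot1, Sqstm1 and Map3k6, and the falls by Nmrk2, Cyp1a1, Itgb6 and Slamf9.

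The number of calls dropped when any 1 of the 6 hearts was left out, and it varied with settings. It was 93, 120 and 72 without 8-week replicates 1, 2 and 3, and 91, 138 and 143 without chow replicates 1, 2 and 3. With slide as a block it was 57, and 24 of the 57 called genes described here remained called. Fitting the background on all spots gave 135 calls, of which 63.7% were higher, against 47.5% in the fit used here. All 263 genes kept their direction with all spots in that fit, on Agilent's ratio, in the series matrix and with slide as a block. The leading falls, Nmrk2, Cyp1a1, Itgb6 and Slamf9, lost their calls both with all spots and in the series matrix. Leaving out an array could not turn a sign, since the groups did not overlap. Of these 57 genes, 15 passed in every setting in which they were tested, including each fit with 1 array left out. The MuRF1 +/+ 3-week arrays were in the model but were never left out. The 15 were Pdk4, Sqstm1, Cirbp, Tacc2, Bclaf1, Plin4, Herpud1, Mt1, Gabarapl1 and Plin3 among the rises, and Ppargc1b, Aif1, Sh3kbp1, Alas1 and Tfrc among the falls.

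**Figure D1:**
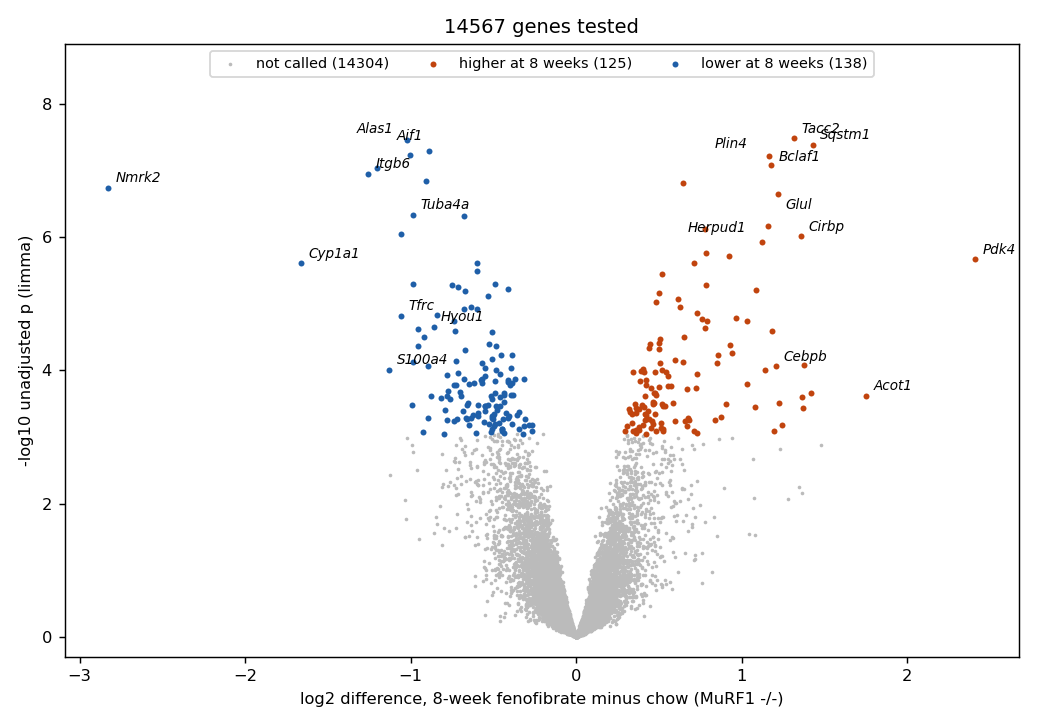
Each point is 1 of the 14567 tested genes, with the log2 difference of 8-week fenofibrate minus chow in MuRF1 -/- hearts on the horizontal axis and -log10 of the unadjusted limma p on the vertical axis. The called genes stand out in colour, 125 to the right of 0 and 138 to the left, with Pdk4 at 2.41 and Nmrk2 at -2.83 at the ends.

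The kinase gene Pdk4, the thioesterase gene Acot1 and 2 lipid droplet genes rose, while no gene of fatty acid oxidation passed the test. Pdk4 stood at 1.38, 2.65 and 1.75 in the 8-week hearts and at -0.32, -0.82 and -0.32 in the chow hearts. Every treated heart was above every chow heart, and replicate 2 of each group held the highest and the lowest value. Pdk4 rose 5.32-fold (log2 2.41 ± 0.36 SE, limma adjusted p = 0.00135), and by 2.05 on the log2 scale without 8-week replicate 2, the smallest rise with any 1 of the 6 arrays left out. Acot1, a cytosolic thioesterase that frees fatty acids from coenzyme A, lay at 0.09, 1.24 and 0.63 with the drug and at -1.15, -1.42 and -0.73 without it. It rose 3.37-fold (1.75 ± 0.39, adjusted p = 0.0246), and the call held only without 8-week replicate 1 or chow replicate 3 (adjusted p up to 0.131 otherwise). Acot1 shares most of its sequence with Acot2, so a probe may bind both; the Acot2 probe differed by 0.45 and did not pass (adjusted p = 0.623).

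Plin4, a coat protein of lipid droplets, measured 1.96, 2.42 and 2.11 after fenofibrate and 0.85, 1.11 and 1.04 on chow. The groups were well apart and their members close together. Plin4 rose 2.24-fold (1.16 ± 0.13, adjusted p = 0.000144) and Plin3, another droplet coat protein, rose 1.72-fold (0.79 ± 0.12, adjusted p = 0.00242). Angptl4, an inhibitor of lipoprotein lipase, was at -1.73, -0.43 and -2.51 in treated and at -2.56, -2.61 and -2.72 in chow hearts. Its difference of 1.07 was spread too widely to pass (adjusted p = 0.154), and 8-week replicate 2 was the highest heart. Vldlr, a receptor for triglyceride-rich lipoproteins, differed by 0.57 (adjusted p = 0.182).

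Among 34 tested targets of PPAR alpha, 3 rose (Pdk4, Acot1 and Txnip, an arrestin that restrains glucose uptake), 0 fell and 31 did not pass, with a median log2 difference of 0.16 against -0.01 over all genes. Of 28 genes of lipid uptake, storage and lipolysis, 2 rose and 0 fell (median 0.11). The shares of all genes called were 0.858% higher and 0.947% lower. None of 26 genes of mitochondrial fatty acid oxidation (median 0.10), 25 of peroxisomal lipid metabolism (0.04), 21 of the tricarboxylic acid cycle (0.13) and 35 of the respiratory chain (-0.03) passed in limma. At an unadjusted p under 0.05, 0, 1, 0 and 0 of them did. Most members differed by little but in one direction: 31 of the 34 PPAR alpha targets, 22 of the 26 fatty acid oxidation genes and 19 of the 21 tricarboxylic acid cycle genes were higher, against 47.9% of all genes. These members were measured in the same hearts, so the counts of direction carry no test. The mean of the PPAR alpha targets was 0.74 to 1.09 in treated and 0.49 to 0.66 in chow hearts, without overlap. That mean includes Pdk4, Acot1 and Txnip, which were called in the same comparison. Its separation therefore says nothing of the other members. Means of fatty acid oxidation genes (1.20 to 1.46 against 1.09 to 1.33) and of tricarboxylic acid cycle genes (1.13 to 1.32 against 0.93 to 1.18) overlapped. In MuRF1 +/+ hearts the medians of the 3 lists were 0.02, -0.26 and -0.59, and 1 heart at 8 weeks weighed heavily on them. Means of tricarboxylic acid cycle genes there were -0.04, 0.93 and 1.16 with fenofibrate, against 1.19 to 1.35 on chow. Those of fatty acid oxidation genes were 0.65, 1.17 and 1.31, against 1.23 to 1.30 on chow. The call of Txnip (log2 0.91 ± 0.21, adjusted p = 0.0293) held only without chow replicate 2 when single arrays were left out, with adjusted p up to 0.152.

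2 partner genes of the PPAR receptors fell, and most of the list did not pass. Ppargc1b, a coactivator that drives mitochondrial and oxidative genes, was at -0.25, -0.24 and -0.46 with fenofibrate and at 0.30, 0.45 and 0.32 on chow. It fell 1.59-fold (-0.67 ± 0.11, adjusted p = 0.00264) with no overlap between groups. Rxrg, an RXR form of heart and skeletal muscle, fell by 0.51 on the log2 scale (± 0.11, adjusted p = 0.0264), but lost its call with any 1 of the 6 arrays left out (0.0532 to 0.115). These were 2 of 23 tested receptors, partners and coactivators of the PPAR family, with 21 not passing (median -0.04). Hk1, a hexokinase, fell 1.36-fold (-0.45 ± 0.11, adjusted p = 0.0370), a call likewise lost with any array left out (0.0691 to 0.174).

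**Figure D2:**
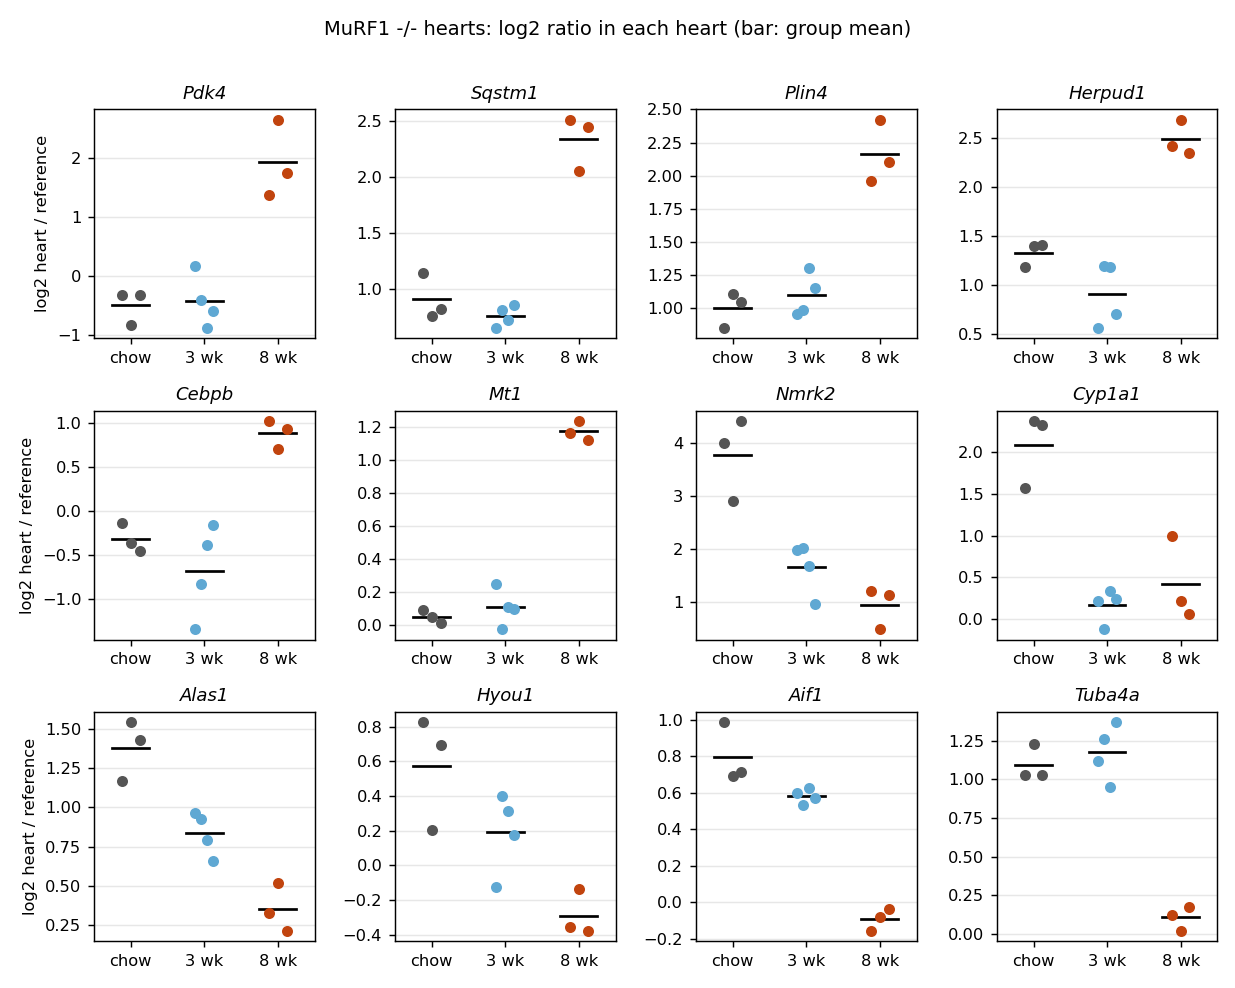
Log2 ratio of heart over pup reference for 12 genes in MuRF1 -/- hearts on chow (n = 3), after 3 weeks (n = 4) and after 8 weeks of fenofibrate (n = 3). Points are hearts and bars are group means. Pdk4, Sqstm1, Plin4 and Herpud1 are highest in the 8-week hearts, while Cyp1a1 and Nmrk2 are already low at 3 weeks.

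4 genes of endoplasmic reticulum folding fell, while Herpud1, a gene of its degradation pathway, rose. These genes form the unfolded protein response: misfolded protein in the endoplasmic reticulum releases ATF6, PERK and IRE1, and ATF6 and XBP1 then bind ER stress elements in chaperone promoters. The list used here was drawn up after values had been seen, so its counts describe and carry no test. Of 36 tested genes, 4 fell (Hyou1, Pdia6, Sdf2l1 and Calr), 1 rose (Herpud1) and 31 did not pass, against 0.947% and 0.858% of all genes lower and higher. The median was -0.15. At an unadjusted limma p under 0.05, 15 members were lower and 2 higher, against 7.21% and 5.46% of all genes.

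Hyou1, a large chaperone of the endoplasmic reticulum also induced by lack of oxygen, stood at -0.36, -0.14 and -0.37 after fenofibrate and at 0.82, 0.20 and 0.69 on chow. All treated hearts were below all chow hearts, with chow replicate 2 the nearest. Hyou1 fell 1.82-fold (-0.86 ± 0.15, adjusted p = 0.00610) and passed with each of the 6 arrays left out, but not with slide as a block (adjusted p = 0.0864). Sdf2l1, a partner of BiP that slows protein aggregation, was at -0.12, -0.38 and -0.19 against 0.59, 0.02 and 0.56, and fell 1.54-fold (-0.62 ± 0.13, adjusted p = 0.0196). Chow replicate 2 was again the lowest chow heart. Calr, the calcium-binding chaperone calreticulin, was at -1.20, -1.12 and -1.03 against -0.34, -0.61 and -0.76, and fell 1.46-fold (-0.55 ± 0.13, adjusted p = 0.0295). Pdia6, a disulfide isomerase, was at -1.42, -1.46 and -1.31 against -0.46, -0.87 and -0.69, and fell 1.65-fold (-0.72 ± 0.17, adjusted p = 0.0370). Treated hearts were tightly grouped for both genes, and the spread lay among the chow hearts.

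The smaller falls rested on single arrays. Sdf2l1 passed only without 8-week replicate 1 or chow replicate 2, Calr only without chow replicate 3, and Pdia6 with none of the 6 left out, with adjusted p up to 0.112, 0.160 and 0.178. Other probes of Pdia6 differed by -0.17, 0.05 and -0.0048, and another probe of Calr by -0.17. Hspa5, the master chaperone BiP, was at -0.58 and -0.43 in 2 treated hearts, with an outlier spot left out in replicate 3, and at 0.52, -0.08 and 0.17 on chow. Its difference of -0.71 ± 0.20 did not pass (adjusted p = 0.0827). Neither did those of Hsp90b1, the chaperone GRP94 (-0.64, adjusted p = 0.0863), and Pdia3 (-0.50, adjusted p = 0.0561).

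Herpud1, which sits in the endoplasmic reticulum membrane and helps send misfolded proteins to the proteasome, moved against the chaperones. It measured 2.42, 2.68 and 2.34 after fenofibrate and 1.18, 1.40 and 1.40 on chow, with a wide gap between groups. Herpud1 rose 2.23-fold (1.16 ± 0.16, adjusted p = 0.000625) and passed in every setting.

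Promoter letters were read to see whether the members that fell and the one that rose hold the elements named for this response. In a RefSeq table of build GRCm38.p6 that runs from 250 bases before to 50 after each start, the 250 bases before the start were searched on both strands for 2 elements. The ER stress element is CCAAT and CCACG with 9 bases of any kind between them, and ER stress element II is ATTGG and CCACG with 1 base of any kind between them. The first was in 35 of 27025 promoters (0.13%) and in 14 of the 9897 belonging to tested genes (0.141%). The second was in 10 (0.037%) and 6 (0.0606%). Of 31 tested list members with a promoter in the table, 9 held the first element: Calr, Canx, Creld2, Dnajc3, Ero1b, Hsp90b1, Hspa5, Pdia6 and Syvn1. Of these 9, 7 were lower after fenofibrate and 2 of the 7 were called (Calr and Pdia6). The whole list leaned the same way, with 36.1% of its members higher against 47.9% of all genes. The 7 of 9 therefore do not set the element apart. Herpud1, the only called rise, was the only member with element II and lacked the first element. Of the other called falls, Sdf2l1 held neither element and Hyou1 was not searched. A match is a description of the sequence and says nothing of binding.

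The stretches around the elements are shown for the 2 called falls, for the paired chaperones Hspa5 and Hsp90b1, and for Herpud1. They are written 5′ to 3′ on the gene's strand with the element in capitals, which reads in reverse complement for Calr and for the second Hsp90b1 site. Positions of the element count back from the start of the gene.
Calr (chr8:84847060-84847108, minus strand, -162 to -144): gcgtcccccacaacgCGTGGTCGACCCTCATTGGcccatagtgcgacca
Pdia6 (chr12:17266476-17266524, plus strand, -98 to -80): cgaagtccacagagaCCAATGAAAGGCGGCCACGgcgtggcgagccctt
Hspa5 (chr2:34772010-34772058, plus strand, -65 to -47): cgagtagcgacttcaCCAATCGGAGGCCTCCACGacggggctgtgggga
Hsp90b1 (chr10:86705623-86705671, minus strand, -212 to -194): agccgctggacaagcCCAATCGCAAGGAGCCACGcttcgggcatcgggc
Hsp90b1 (chr10:86705518-86705566, minus strand, -107 to -89): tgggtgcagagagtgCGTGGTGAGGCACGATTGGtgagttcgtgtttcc
Herpud1 (chr8:94386362-94386402, plus strand, element II, -52 to -42): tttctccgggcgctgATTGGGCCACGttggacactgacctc

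In MuRF1 +/+ hearts the same chaperones were not lower after 8 weeks. There Hyou1 differed by 0.22 (adjusted p = 0.325), Calr by 0.21 (0.248), Sdf2l1 by 0.18 (0.344), Pdia6 by -0.05 (0.867) and Herpud1 by 0.24 (0.278), and the list median was 0.19 against -0.15 in MuRF1 -/-. The list mean was -0.29 to -0.22 in MuRF1 -/- hearts with fenofibrate and -0.20 to -0.01 on chow. In MuRF1 +/+ hearts it was -0.17 to -0.09 with the drug and -0.31 to -0.26 on chow, so the order of the diets was turned. Part of this lay in the chow hearts, which were lower in MuRF1 +/+ than in MuRF1 -/-. The difference between the genotypes' responses, tested in the same limma model, passed for none of these genes: it was -1.08 ± 0.22 for Hyou1 (adjusted p = 0.151), 0.91 ± 0.22 for Herpud1 (0.220), -0.76 ± 0.18 for Calr (0.220) and -0.67 ± 0.24 for Pdia6 (0.231). A different response of the chaperones is therefore not shown. None passed without MuRF1 +/+ 8-week replicate 2 either (adjusted p = 0.161 for Hyou1, 0.349 for Herpud1).

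**Figure D3:**
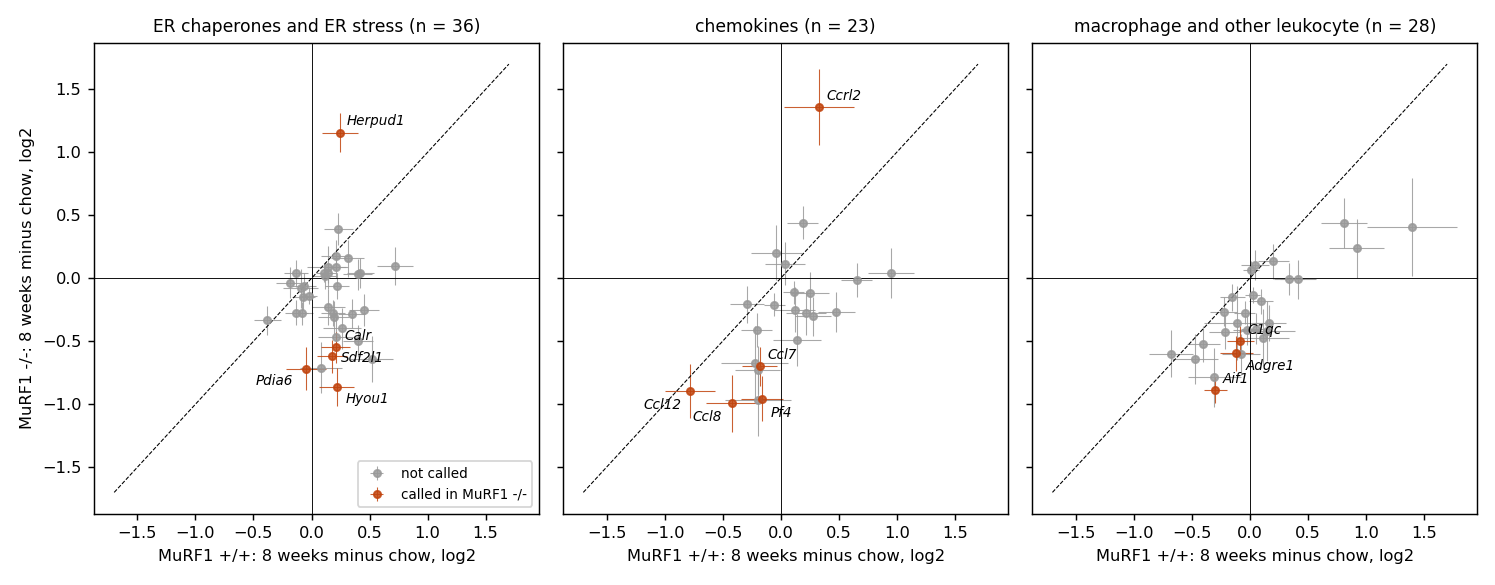
Log2 difference of 8-week fenofibrate minus chow in MuRF1 +/+ hearts (horizontal) and MuRF1 -/- hearts (vertical) for 36 genes of endoplasmic reticulum chaperones and stress, 23 chemokines and their decoy receptors and 28 leukocyte markers, with SE bars. Points on the dashed line responded alike; Hyou1 lies below it and Herpud1 above it, and neither differs from it by the test of the difference.

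Genes of autophagy, of the stress response and of metal binding were among the rises. Sqstm1, the adaptor p62 that carries ubiquitinated proteins into autophagosomes and is a target of NRF2, was at 2.51, 2.05 and 2.45 after fenofibrate and at 1.15, 0.76 and 0.82 on chow. The gap between groups was wider than the spread within them, and Sqstm1 rose 2.69-fold (1.43 ± 0.16, adjusted p = 0.000144). Gabarapl1, which lengthens autophagosome membranes, rose 1.90-fold (0.92 ± 0.14, adjusted p = 0.00127). They were the 2 of 32 tested autophagy genes that passed (median 0.04). Of 26 NRF2 targets, Sqstm1 and Gclm, a subunit of the enzyme that makes the glutathione precursor, rose and 24 did not pass (median 0.09). The rise of Gclm (0.44 ± 0.11, adjusted p = 0.0370) was lost with any array left out (0.0749 to 0.195), and Hmox1, heme oxygenase, differed by 0.70 (adjusted p = 0.0604).

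Genes that glucocorticoids are known to raise were among the rises too. Of 21 tested, 3 rose, 0 fell and 18 did not pass, with a median of 0.29 against -0.01 over all genes. At an unadjusted limma p under 0.05, 9 were higher and 0 lower. Among all genes, 0.858% were called higher, and 5.46% were higher without adjustment. Mt1, a metallothionein that binds zinc and copper, was at 1.16, 1.23 and 1.12 in treated hearts and at 0.09, 0.04 and 0.01 in chow hearts. Each group was tight and Mt1 rose 2.18-fold (1.12 ± 0.16, adjusted p = 0.000868), although another Mt1 probe differed by 0.046. Cebpb, a transcription factor of stress and adipocyte genes, was at 1.03, 0.71 and 0.94 against -0.13, -0.36 and -0.45, and rose 2.31-fold (1.21 ± 0.24, adjusted p = 0.0148), with another probe at 0.40. Cdkn1a, the cell cycle inhibitor p21, was at -0.24, -0.43 and -0.62 against -1.11, -1.25 and -1.49, and rose 1.81-fold (0.85 ± 0.17, adjusted p = 0.0137). Neither gene's groups overlapped.

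Both calls were lost in some fits with 1 array left out, though the differences kept most of their size. Cebpb (1.14 to 1.30) passed only without 8-week replicate 2 or chow replicate 1 (limma adjusted p up to 0.0744). Cdkn1a (0.75 to 0.95) did not pass if 8-week replicate 1 or chow replicate 3 was left out (up to 0.0763). Cdkn1a also lost its call with the background fitted on all spots (0.350). Ddit4, an inhibitor of mTORC1 signalling, was at 0.43, 0.54 and 0.66 with the drug and -1.11, -0.29 and -1.40 without it. Its difference of 1.48 ± 0.39 was among the largest but did not pass (adjusted p = 0.0604), as was true of Mt2 (1.36, 0.144) and Cebpd (1.07, 0.0779). Map3k6, a stress-activated kinase, lay at 1.20, 1.38 and 1.38 against -0.28, -0.12 and 0.25, and rose 2.59-fold (1.37 ± 0.32, adjusted p = 0.0308). The treated hearts were nearly level, yet the call held only without chow replicate 3 (up to 0.136).

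Several of the steadiest rises belonged to none of the lists. Cirbp, an RNA-binding protein induced by mild cold, was at 0.08, 0.17 and 0.12 after fenofibrate and at -1.44, -1.29 and -0.98 on chow, and rose 2.57-fold (1.36 ± 0.19, adjusted p = 0.000739). Tacc2, a centrosomal protein, was at 1.52, 1.86 and 1.79 against 0.58, 0.21 and 0.43, and rose 2.49-fold (1.32 ± 0.15, adjusted p = 0.000144). Glul, glutamine synthetase, was at 1.72, 1.51 and 1.60 against 0.40, 0.41 and 0.35, and rose 2.33-fold (1.22 ± 0.15, adjusted p = 0.000256). The treated and chow hearts of these genes were each closely grouped, though Glul did not pass with its probes averaged (0.0595). Mknk2, a kinase that phosphorylates the cap-binding protein eIF4E, rose 2.04-fold (1.03 ± 0.18, adjusted p = 0.00512). Bclaf1, a nuclear protein of transcription and splicing, rose 2.26-fold at the tested probe (1.18 ± 0.14, adjusted p = 0.000166), but 4 other probes differed by 0.03 to 0.30. H1f2, a linker histone, rose 2.20-fold (1.14 ± 0.23, adjusted p = 0.0158), a call that held only without 8-week replicate 2 or chow replicate 3.

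Nmrk2 had the largest fall. It encodes the nicotinamide riboside kinase of striated muscle, an entry to NAD that is induced when the heart's energy supply is strained. Its levels were 1.22, 0.49 and 1.13 after fenofibrate and 4.00, 2.92 and 4.41 on chow, so the lowest chow heart was still well above the highest treated heart. Nmrk2 fell 7.11-fold (-2.83 ± 0.35, adjusted p = 0.000221), with differences of -3.26 to -2.51 when single arrays were left out. None of the other 15 tested genes of NAD synthesis and salvage passed. Fitting the background on all spots (adjusted p = 0.0533) or taking the authors' deposited series matrix (0.0805) lost the call.

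Cyp1a1, the cytochrome P450 that marks activity of the aryl hydrocarbon receptor, was at 1.00, 0.21 and 0.06 with fenofibrate and at 1.57, 2.37 and 2.33 on chow. All treated hearts were lower and 8-week replicate 1 came nearest to the chow hearts. Its probe was well above background in 2 of the 3 treated hearts. Cyp1a1 fell 3.16-fold (-1.66 ± 0.25, adjusted p = 0.00138), or 7.95-fold on Agilent's deposited ratio (-2.99 ± 0.76, adjusted p = 0.0412), while the related Cyp1b1 rose 1.24-fold (0.32 ± 0.07, adjusted p = 0.0311), 7 of the 9 tested targets of this receptor not passing. Cyp1b1 passed only without 8-week replicate 1 (otherwise up to 0.179), and Cyp1a1 lost its call with the background fitted on all spots (0.158) or in the series matrix (0.243).

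Heme and iron genes contributed 2 falls among 22 tested, against 0.947% of all genes called lower. Alas1, the first and rate-limiting enzyme of heme synthesis outside red cells, was at 0.32, 0.52 and 0.22 against 1.17, 1.54 and 1.42 on chow. It fell 2.03-fold (-1.02 ± 0.11, adjusted p = 0.000144) with the groups far apart. Tfrc, the transferrin receptor that takes up iron, was at -0.74, -1.00 and -0.95 against 0.19, 0.53 and -0.24, and fell 2.08-fold (-1.06 ± 0.18, adjusted p = 0.00466). Both passed in every setting in which they were tested. The other 20 genes of the list did not pass, and the list median was 0.03. Egln3, an oxygen-sensing prolyl hydroxylase that marks HIF for destruction, was at -0.08, -0.09 and -0.01 against 1.26, 0.87 and 0.65, and fell 1.99-fold (-0.99 ± 0.20, adjusted p = 0.0137). The treated hearts were level for Egln3, whose call held only without chow replicate 2 or 3 (otherwise up to 0.0833).

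3 leukocyte markers and 4 chemokines fell. Aif1, a calcium-binding protein of macrophages also called IBA1, was at -0.16, -0.08 and -0.04 after fenofibrate and at 0.99, 0.69 and 0.71 on chow. The gap was wider than the spread within either group, and Aif1 fell 1.85-fold (-0.89 ± 0.10, adjusted p = 0.000144) in every setting, with another probe at -0.38. Adgre1, the macrophage surface marker F4/80, was at -0.39, -0.37 and -0.35 against 0.57, 0.27 and -0.15, and fell 1.51-fold (-0.60 ± 0.14, adjusted p = 0.0344). C1qc, a chain of complement C1q made by macrophages, was at -0.01, -0.24 and -0.31 against 0.59, 0.27 and 0.08, and fell 1.41-fold (-0.50 ± 0.12, adjusted p = 0.0347). The chow hearts were spread widely for these 2 genes, with replicate 1 highest. Adgre1 passed only without chow replicate 3 (otherwise up to 0.181) and C1qc only without 8-week replicate 1 or chow replicate 3 (up to 0.194).

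Of 28 tested leukocyte markers these 3 fell, 0 rose and 25 did not pass, with a median of -0.36. At an unadjusted limma p under 0.05, 15 were lower and 1 higher, against 7.21% and 5.46% of all genes. The share of all genes called lower was 0.947%. Class II genes of antigen presentation were among those not passing, with H2-Ab1 differing by -0.79 (adjusted p = 0.0939) and Cd74 by -0.60 (0.0659). Summed over the list, the mean level was -0.45 to -0.27 in treated and -0.27 to 0.10 in chow hearts, and 26 of the 28 markers were above background on all 6 arrays. In whole hearts, fewer cells of a type and less RNA per cell cannot be told apart. Among markers of other cells, endothelial genes had means of 0.29 to 0.40 against 0.27 to 0.41, and cardiomyocyte genes are given above. Smooth muscle and pericyte genes were at -0.45 to -0.34 against -0.27 to -0.04, with 0 of 20 called and a median of -0.28, close to the leukocyte markers in size. Matrix and fibroblast genes were at -1.86 to -1.82 against -1.89 to -1.41. Their part in the lower leukocyte levels was not tested.

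Chemokines, gathered into a list after values had been seen, showed 4 falls and 1 rise among 23 tested (median -0.27). Of all genes, 0.947% fell and 0.858% rose, and the counts of this list carry no test. Ccl8, a ligand that draws monocytes, was at 0.48, 0.26 and 0.45 against 1.71, 1.29 and 1.16 on chow, and fell 1.99-fold (-0.99 ± 0.23, adjusted p = 0.0293). Its neighbours among the monocyte chemoattractants, Ccl12 (-0.90 ± 0.21, adjusted p = 0.0370) and Ccl7 (-0.70 ± 0.15, adjusted p = 0.0239), fell too, and Ccl2 differed by -0.73 (0.0604). All treated hearts were near 0 for Ccl7, at -0.07, -0.08 and -0.03, where 2 of 3 were above background, against 1.04, 0.53 and 0.35 on chow. Pf4, a platelet and macrophage chemokine, was at -1.73, -2.24 and -2.00 against -0.64, -1.37 and -1.09, and fell 1.94-fold (-0.96 ± 0.18, adjusted p = 0.00951). Ccrl2, a receptor that binds chemerin and does not signal, was the exception at 3.28, 2.08 and 3.64 against 1.55, 1.62 and 1.75. It rose 2.57-fold (1.36 ± 0.30, adjusted p = 0.0250), with 8-week replicate 2 close to the chow hearts.

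No chemokine passed in limma without 8-week replicate 3 or without chow replicate 1. With all arrays, 10 were lower and 2 higher at an unadjusted p under 0.05, against 7.21% and 5.46% of all genes. Ccl8 and Ccl12 passed only without chow replicate 3, Ccl7 only without chow replicate 2 or 3, Ccrl2 only without 8-week replicate 2, and Pf4 without 8-week replicate 1 or chow replicate 2 or 3. Their highest adjusted p values were 0.150, 0.187, 0.125, 0.168 and 0.0635. Dim genes are understated by the background offset used here. On Agilent's deposited log ratio the differences were -1.84 for Ccl8, -2.46 for Ccl12, -2.28 for Ccl7 and -1.60 for Aif1. Their spread was larger too: on that ratio Ccl8 (± 0.68, adjusted p = 0.180) and Ccl7 (± 0.74, 0.112) did not pass, while Ccl12 (0.00750) and Aif1 (7.60e-05) did.

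Antigen presentation and fibroblast genes added further falls. The immunoproteasome and class I presentation list held 2 falls among 15 tested (median -0.29), against 0.947% of all genes called lower. They were Calr, already counted among the endoplasmic reticulum genes, and Psmb9, an interferon-induced catalytic subunit. The latter was at 0.24, 0.59 and 0.38 against 1.01, 1.21 and 1.04. Psmb9 fell 1.61-fold (-0.68 ± 0.16, adjusted p = 0.0331) but passed only without 8-week replicate 2 (otherwise up to 0.147), and Psmb8 differed by -0.53 (0.0635). With the background fitted on all spots Psmb9 differed by -0.39 (limma adjusted p = 0.430), and in the series matrix by -0.48 (0.370). None of 29 interferon response genes passed (median -0.14). At an unadjusted limma p under 0.05, 5 were lower and 0 higher, against 7.21% and 5.46% of all genes. S100a4, a calcium-binding protein of fibroblasts and macrophages, was the only one of 38 matrix and fibroblast genes to pass. It was at -1.48, -1.99 and -1.64 against -0.15, -0.81 and -0.77, and fell 2.19-fold (-1.13 ± 0.23, adjusted p = 0.0158), a call that was gone if 8-week replicate 2 or 3 or chow replicate 1 was left out (up to 0.0927). Slamf9, an immune receptor of the SLAM family, fell 2.30-fold (-1.20 ± 0.14, adjusted p = 0.000166). That call was lost if the background was fitted on all spots (0.189) and in the series matrix (0.275).

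**Figure D4:**
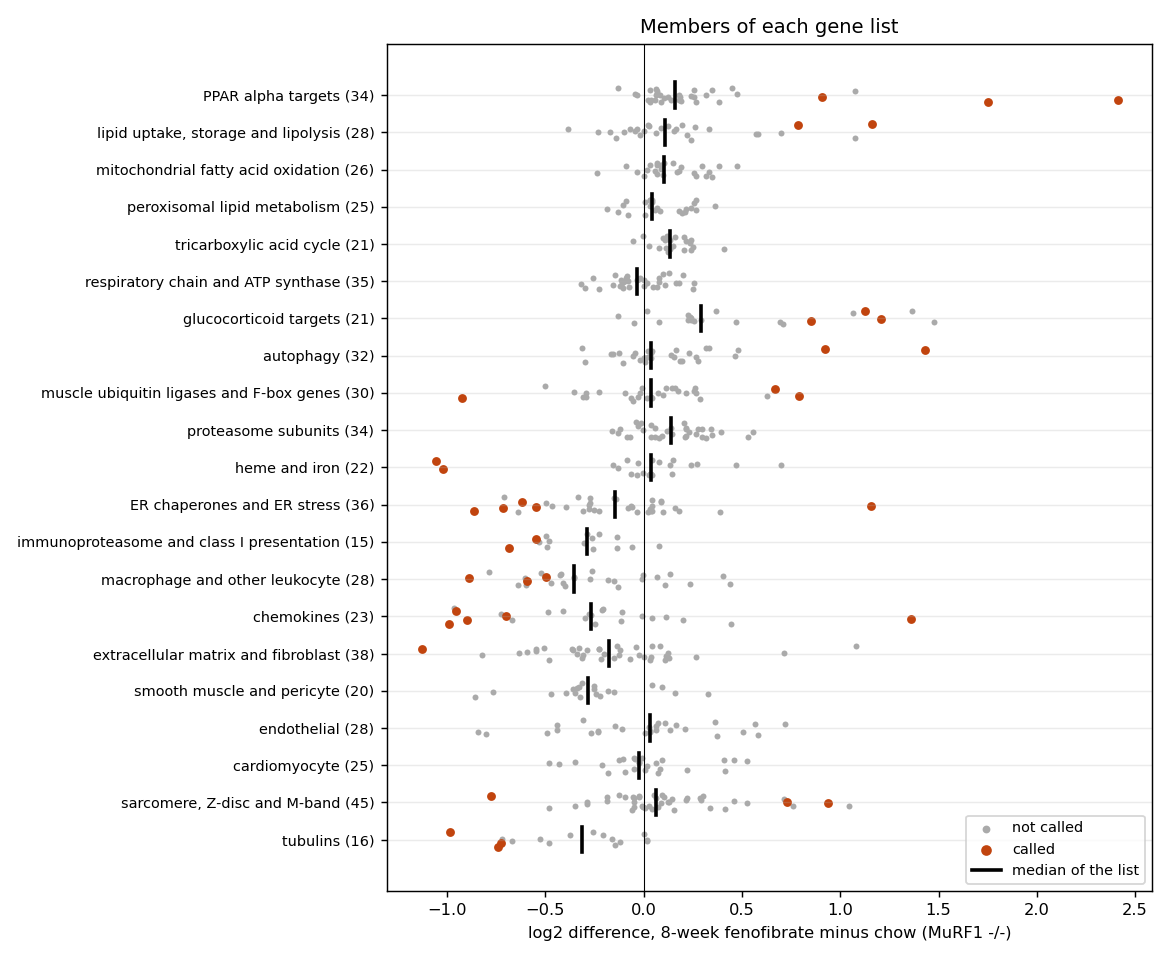
Log2 difference of 8-week fenofibrate minus chow for every tested member of 21 gene lists in MuRF1 -/- hearts, with the number tested in brackets, called genes in colour and a bar at each list's median. Medians run from -0.36 for leukocyte markers to 0.29 for glucocorticoid targets, and called members mostly sit at the ends of their lists.

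3 tubulin and microtubule genes fell. Tuba4a, an alpha tubulin, was at 0.13, 0.02 and 0.18 after fenofibrate and at 1.03, 1.23 and 1.03 on chow, and fell 1.98-fold (-0.99 ± 0.13, adjusted p = 0.000464). The groups were tight and far apart, and 2 other Tuba4a probes differed by -0.49 and -0.72. Tubb4b, a beta tubulin, fell 1.67-fold (-0.74 ± 0.16, adjusted p = 0.0200) and Mapre2, which binds microtubule ends, fell 1.65-fold (-0.73 ± 0.14, adjusted p = 0.0135). They were 3 falls and 0 rises among 16 tubulin and microtubule-end genes (median -0.32), a list chosen after values had been seen. The shares of all genes called were 0.947% lower and 0.858% higher. Tubb4b passed only without chow replicate 1 (otherwise up to 0.0936), Mapre2 only without 8-week replicate 1 or 2 or chow replicate 2 (up to 0.0859), and another Mapre2 probe differed by 0.03.

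In the sarcomere list of 45 tested genes 2 rose, 1 fell and 42 did not pass (median 0.06). Myom2, a structural protein of the M-band, was at 2.53 and 2.54 in 2 treated hearts, with replicate 3 lost as an outlier spot, and at 1.33, 1.82 and 1.65 on chow. It rose 1.92-fold (0.94 ± 0.18, adjusted p = 0.0112), but did not pass if 8-week replicate 1 or 2 or chow replicate 1 was left out (up to 0.0802). Pdlim3, a Z-disc protein, rose 1.66-fold (0.73 ± 0.15, adjusted p = 0.0164). Fhl2, which tethers metabolic enzymes to titin, was at 3.98, 4.02 and 3.78 against 4.92, 4.33 and 4.86, and fell 1.71-fold (-0.78 ± 0.17, adjusted p = 0.0231). Treated hearts were lower throughout, but Fhl2 passed only without chow replicate 2 (otherwise up to 0.129) and Pdlim3 only without 8-week replicate 3 or chow replicate 3 (up to 0.0885).

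Fetal and hypertrophy genes gave 1 call among 28 tested, Fhl2. The natriuretic peptide genes Nppa and Nppb differed by 0.41 (adjusted p = 0.438) and -0.95 (0.326), skeletal alpha actin Acta1 by -0.29 (0.772) and the slow myosin heavy chain Myh7 by 1.04 (0.300). The last was at 2.34, 1.57 and 2.02 with fenofibrate and at 1.40, 0.21 and 1.18 on chow. The treated hearts were above the chow hearts, while chow replicate 2 was far below the other chow hearts.

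Among 30 tested ubiquitin ligase genes, 2 rose and 1 fell, against 0.858% and 0.947% of all genes. Ubr2, an N-end rule ligase of wasting muscle, rose 1.73-fold (0.79 ± 0.14, adjusted p = 0.00512), with values of 1.05, 1.37 and 1.36 against 0.38, 0.47 and 0.56. Its 4 other probes differed by 0.10 to 0.58. Fbxo31, which directs cyclin D1 to degradation, rose 1.59-fold (0.67 ± 0.14, adjusted p = 0.0217) at 2.64, 2.72 and 2.61 against 2.01, 1.85 and 2.10. The groups of both genes were apart. Fbxl22, an F-box protein of the Z-disc, fell 1.90-fold (-0.92 ± 0.23, adjusted p = 0.0482) at 1.55, 1.43 and 1.63 against 2.20, 2.45 and 2.73. Fbxo31 passed only without chow replicate 3 (otherwise up to 0.0964) and Fbxl22 with no array left out (0.0774 to 0.185). The size of the Fbxl22 fall varied too. It was -0.43 with the background fitted on all spots (limma adjusted p = 0.644) and -0.16 in the series matrix (0.884), and another Fbxl22 probe differed by -0.41. Fbxo32, the atrophy ligase atrogin-1, differed by 0.63 (adjusted p = 0.165), and 27 of the 30 tested ligase genes did not pass (median 0.04). Of 34 proteasome subunits 0 passed in limma (median 0.14). At an unadjusted limma p under 0.05, 6 were higher and 0 lower, against 5.46% and 7.21% of all genes.

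Other falls lay outside the lists or in lists with 1 call. Itgb6, a beta integrin subunit that activates TGF beta, was at 0.27, 0.32 and 0.31 against 1.45, 1.42 and 1.81, and fell 2.39-fold (-1.26 ± 0.15, adjusted p = 0.000181) as 1 of 20 integrin subunits. The treated hearts were level and clear of the chow hearts, yet the call was lost when all spots entered the background fit (0.127) and in the series matrix (0.178). Ung, a DNA repair glycosylase that removes uracil, fell 2.01-fold (-1.00 ± 0.12, adjusted p = 0.000144), and Sh3kbp1, an adaptor of receptor endocytosis, fell 1.87-fold (-0.91 ± 0.11, adjusted p = 0.000204). Kpna2, an importin that carries proteins into the nucleus, fell 1.94-fold (-0.96 ± 0.17, adjusted p = 0.00643) and was lost without 8-week replicate 3 (0.0540). Fam78a, a gene of unknown function, fell 1.98-fold (-0.99 ± 0.16, adjusted p = 0.00242). Ung and Fam78a lost their calls when the background was fitted on all spots (0.0972 and 0.258) and in the series matrix (0.148 and 0.277). None of 39 ribosomal protein genes passed in limma, nor at an unadjusted p under 0.05 (median -0.08).

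More genes were called between 8 weeks and chow in MuRF1 +/+ hearts, 2028 of 14567 (13.9%), with 5.17% of all genes higher and 8.75% lower. There every chow heart and no 8-week heart had Y-linked transcripts, so this count cannot part diet from Y-linked status. Among the MuRF1 -/- hearts compared, only 8-week replicate 2 lacked these transcripts, so the counts of the genotypes are not like for like. Of the 263 genes called in MuRF1 -/- hearts, 240 differed in the same direction in MuRF1 +/+ and 163 were also called, all in the same direction. The 163 make up 62.0% of the MuRF1 -/- calls and 8.04% of the MuRF1 +/+ calls. Without MuRF1 +/+ 8-week replicate 2, the array that stood apart, the MuRF1 +/+ count was 935, and 154 of the 263 were among them. With all arrays, the leading genes differed in both genotypes: Pdk4 differed by 2.82 in MuRF1 +/+ and 2.41 in MuRF1 -/-, Sqstm1 by 1.46 and 1.43, Nmrk2 by -2.58 and -2.83, and Glul by 1.30 and 1.22. For Pdk4 the difference between responses was -0.41 ± 0.50, and for Sqstm1 -0.03 ± 0.22.

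Some genes were called in MuRF1 -/- hearts and not in MuRF1 +/+ hearts. Besides Hyou1 and Herpud1, these included Ccrl2 (1.36 against 0.33), Pf4 (-0.96 against -0.16), S100a4 (-1.13 against 0.15), Psmb9 (-0.68 against 0.10) and Aif1 (-0.89 against -0.30). Tested directly, the differences between responses were 1.03 ± 0.43, -0.79 ± 0.25, -1.28 ± 0.32, -0.78 ± 0.23 and -0.59 ± 0.14, and none passed (limma adjusted p = 0.261, 0.226, 0.220, 0.226 and 0.220). Over all genes the difference of the responses passed for 1 gene (0.00686%), Arhgef19, while 2434 genes had an unadjusted p under 0.05. Arhgef19 passed the filter on dim probes only through groups other than the MuRF1 -/- 8-week and chow hearts. Without MuRF1 +/+ 8-week replicate 2 these counts were 0 and 1404. All MuRF1 +/+ chow hearts had Y-linked transcripts and no MuRF1 +/+ 8-week heart did, so in that genotype diet and Y-linked status cannot be told apart.

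Pdk4, Herpud1 and Sqstm1 were raised at 8 weeks against 3 weeks of the drug in knockout hearts, while the differences of Cyp1a1 and Nmrk2 did not pass. Compared directly, 4610 genes (31.6%) differed between 8 and 3 weeks of fenofibrate. Of the 263 genes, 162 were among them. In 159 the 8-week hearts differed from the 3-week hearts in the same direction as from chow. Distances from chow were not compared, and the 263 were called with the same 8-week hearts. Between 3 weeks and chow, 99 of the 263 were called in the same direction as at 8 weeks and 11 in the opposite direction. Pdk4 was at 0.17, -0.40, -0.87 and -0.59 in the 4 hearts of 3 weeks, within or near the range of the chow hearts, and was 2.35 ± 0.33 higher at 8 weeks (adjusted p = 5.38e-05). Herpud1 was at 0.56, 1.19, 1.18 and 0.70 at 3 weeks, and 1.57 ± 0.15 higher at 8 weeks (8.85e-07). Sqstm1 was at 0.65, 0.82, 0.73 and 0.86, and 1.57 ± 0.15 higher at 8 weeks (1.04e-06). Itgb6 and Aif1 were 1.21 ± 0.14 and 0.67 ± 0.09 lower at 8 than at 3 weeks (7.33e-06 and 4.76e-05).

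Other genes were already lower than on chow after 3 weeks. Nmrk2 was at 1.99, 2.03, 1.69 and 0.97 at 3 weeks, all below chow and 3 of the 4 above every 8-week heart, and the further step of -0.72 ± 0.33 did not pass (adjusted p = 0.103). Cyp1a1 was at 0.21, -0.12, 0.33 and 0.24 at 3 weeks, level with the 8-week hearts (0.26 ± 0.23, adjusted p = 0.423). Alas1 was at 0.96, 0.93, 0.79 and 0.66, below chow and above 8 weeks, with a step of -0.48 ± 0.11 between the times (0.00222). The 3-week and 8-week hearts share the chow hearts as control, so their differences from chow are not independent. The chow hearts had 8 weeks of diet and Y-linked transcripts, so 3 weeks of the drug cannot be told apart from a shorter diet and from Y-linked status. No 3-week heart had both Y-linked transcripts above background, and a covariate for Y-linked level brought the count between 8 and 3 weeks to 1978.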

How the data were processed

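Heart RNA of MuRF1 -/- and MuRF1 +/+ mice was measured on 20 Agilent arrays with 2 colours, heart in Cy5 and pup reference in Cy3 per the labels (their protocol text instead gives Cy3 as the sample's dye), with no dye swap. The deposited scanner files hold spot intensity and flags of 0 or 1 (another kind of score) from Feature Extraction 9.5.3.1, per the file headers. Per the file headers, Agilent's deposited log10 ratio had its background subtracted and its dyes normalized. The authors' deposited series matrix holds log2 ratios; the sources used here do not state how these were computed.

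Intensities were corrected with normexp (offset 50), which pulls differences of dim genes towards 0, and each array was loess-normalized (limma 3.58.1, running in R 4.3.3). Outlier spots were treated as missing. Spots with local background more than 50 above their signal (7, all on MuRF1 -/- chow replicate 2) were left out of the background fit, a departure from the plan, which is kept as the alternative with all spots. Names came from RefSeq (GRCm38.p6). The probe brightest in the heart channel stood for its gene, which was tested where 3 or more arrays had that probe well above background. One model of group means took in the 20 arrays, its prior variance trended on brightness, and p-values were adjusted over 14567 genes. The test was checked on simulated data. The number of arrays limits the precision, and p-values measure the spread between these hearts.

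The members and lists were chosen with earlier results of these data known. Named genes are the 15 largest called rises and falls with a proper symbol, called members of 45 lists, up to 4 members of each list with the largest test statistic (only some are printed), the check genes, up to 15 genes called under all stability alternatives and genes called in the difference of responses. Lists of endoplasmic reticulum genes, chemokines and tubulins were added after values were seen, and Angptl4, Ddit4, Ccl2 and other genes that were not called are given as values. Replicate numbers did not pair the hearts: correlations of deviations were 0.33, -0.081 and 0.16. Some items are not reported here.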

Additional observations from a re-analysis of the deposited data

Results flagged for a closer look

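The difference of the genotypes' 8-week responses passed the test for Arhgef19, but it compares values at the floor. Arhgef19 is a guanine nucleotide exchange factor encoded on chromosome 4, as is Trim63. The fitted difference of MuRF1 -/- minus MuRF1 +/+ was 0.72 ± 0.11 on the log2 scale (limma adjusted p = 0.0403). In MuRF1 -/- hearts Arhgef19 was not above background on any of the 6 arrays, with levels of -0.0077, 0.0027 and 0.046 after fenofibrate and -0.035, 0.011 and -0.018 on chow, so no response could be measured there. In MuRF1 +/+ hearts it was at a mean of 0.73 on chow and 0.037 after 8 weeks, where no array was above background. The fall there was at least 1.49-fold (heart channel, from the mean of the 3 chow hearts to the floor). The limma adjusted p of 4.18e-05 belongs to the log2 ratio difference of -0.69, not to this bound. Arhgef19 was above background on 5 of the 20 arrays and was tested only through the groups where it was brighter. The difference of the responses therefore rests on values at the floor. The adjusted p of the difference ran from 0.0136 to 0.339 over the alternatives, and the call was lost on Agilent's log ratio (0.163), with slide as a block (0.339), with the replicate block (0.108) and with a covariate for Y-linked level (0.323). It was also lost without any one of the 3 MuRF1 -/- 8-week hearts (0.0505 to 0.208), MuRF1 -/- chow replicate 1 or 3 (0.143 and 0.0770), MuRF1 +/+ 8-week replicate 2 (0.116) and MuRF1 +/+ chow replicate 1 or 3 (0.207 and 0.211).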

How the results depend on the processing

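The number of genes called between 8 weeks of fenofibrate and chow in MuRF1 -/- hearts was 263. It was lower with all spots in the background fit (135), in the series matrix (168), without a filter on dim probes (150), without the 3-week arrays (86), with a covariate for Y-linked level (153) and with slide as a block (57). The count was higher with only the 6 arrays of the comparison (653), without the 2 arrays that stood apart, MuRF1 +/+ 8-week replicate 2 and MuRF1 -/- 3-week replicate 4 (914), and with array weights (1753). Leaving out 1 of the 6 arrays gave 72 to 143 calls. Leaving out 1 other array, never a MuRF1 +/+ 3-week array, gave 198 to 587, the highest without MuRF1 +/+ 8-week replicate 2. On Agilent's ratio it was 389, on the heart channel alone 240, under the strict filter 312, with probes averaged 254 and with the replicate block 260, which changed no statement of direction. Of the 263 calls, 124 were kept with all spots, 109 in the matrix and 53 with slide as a block. Array weights were chosen after seeing the data.

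The difference of the genotypes' responses was called for 1 gene. It was called for 6 with all spots, 8 in the matrix, 0 on Agilent's ratio, under the strict filter, with slide as a block, with the replicate block and with the Y-linked covariate, and for 0 to 1386 genes with 1 array left out, the highest without MuRF1 +/+ 8-week replicate 1. Between 8 and 3 weeks 4610 genes were called, 1978 with the Y-linked covariate and 3241 to 4830 with 1 array left out. The difference of Trim63, 0.04 in the fit reported, was -0.22 with all spots, -0.11 on Agilent's ratio, -0.41 in the matrix, -0.022 with probes averaged and -0.31 with slide as a block, and ran from -0.012 to 0.062 with 1 array left out, lowest without MuRF1 -/- chow replicate 3, with no call in any.

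With 3 hearts per group the median SE was 0.12, so differences of the size of most list medians could not be told from 0 for single genes. Probes near background have compressed differences. Only 1 slide held both groups, so elsewhere the slide block parts slide from group only through the other groups of the series.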
